A study of Rattus norvegicus with 18 samples.

Results

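The nucleus tractus solitarius (NTS) of ovariectomized (OVX) female rats was compared between estradiol benzoate (EB) and Oil treatment, across all genes and by gene family, with attention to families other than the feeding genes. The samples were taken by their label for the tissue, and 6 of the 18 arrays of the series came from the NTS, the others from the arcuate nucleus (ARC) and the paraventricular nucleus (PVN) of the hypothalamus. EB-treated rats had received 10 µg EB, which the sample labels call 17β-estradiol, in 0.1 mL of oil under the skin on days 1 and 2, and Oil-treated rats the same volume of oil alone. Both groups were adult Sprague-Dawley rats, given as 90 days old, whose ovaries had been removed and who recovered for a week before treatment. Brains were collected on day 4 and frozen, and bilateral tissue punches were later taken from the frozen brains. There were 3 EB-treated and 3 Oil-treated NTS samples, labelled as biological replicates, named here by treatment and replicate number. The study used 3 rats per treatment for all 3 regions, so the regions share rats, though the labels do not name the rat of a sample. A punch holds every cell type at its site, so fewer cells of a type and less RNA per cell cannot be told apart. Rat Clariom S arrays gave 1 signal intensity (Log 2) for each of 23188 gene probe sets, and all of them were tested.

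The NTS lies in the caudal medulla beside the fourth ventricle and receives the sensory fibres of the vagus nerve from the gut, heart and lungs. It borders the area postrema, the dorsal motor nucleus of the vagus and, below that, the hypoglossal nucleus, and the choroid plexus of the fourth ventricle lies close above it. Its neurons include noradrenaline cells and cells that make preproglucagon, prolactin-releasing hormone or substance P. Estrogens act through nuclear receptors that bind DNA at estrogen response elements, through partner transcription factors and through receptors at the membrane.

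Markers gave a mixed check of the tissue. A probe set is called below background here where its signal is under that array's background, the median of 23 control probe sets for background, which was between 7.41 and 7.47. Of 23 caudal hindbrain Hox genes 18 lay below background in all 6 samples and 3 above it in all 6. One of the 3, Hoxb5, a homeobox gene of the caudal hindbrain, read 12.01, 11.45 and 12.35 in EB-treated samples and 11.78, 11.74 and 10.81 in Oil-treated samples. The forebrain markers Six3 and Nkx2-1 lay below background in all 6 samples, as did 15 of 17 genes of the forebrain and hypothalamus list. The cerebellar marker Gabra6 did too, but of 15 cerebellar genes 7 lay below background in all 6 samples and 7 above it in all 6. Dbh, the enzyme that makes noradrenaline, and Glp1r, the receptor of glucagon-like peptide 1, lay below background in all 6 samples. Of 14 dorsal vagal complex markers 3 lay below background in all 6 samples and 6 above it in all 6. Tlx3 and Lmx1b had no named probe set. Of all gene probe sets, 11470 lay above background in all 6 samples and 9854 (42.5%) below it in all 6.

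The 6 NTS samples differed in ways that treatment did not divide. Oil 1 and Oil 2 formed the closest pair of all 153 pairs of arrays in the series, with a mean absolute difference of 0.194 and 35 probe sets apart by 2-fold or more, against up to 1237 for the other pairs within a treatment. EB 3 and Oil 3 stood farthest from the rest, with 868 and 956 probe sets at least 2-fold away from the median of the other 5 samples, where the other samples had 138 to 290. Between EB 3 and Oil 3, 2271 probe sets differed by 2-fold or more. The replicate numbers are not stated to mark the same rat in each region. On 36 probe sets that varied together in the ARC and the PVN, 5 of the 6 NTS samples were nevertheless most like the ARC and PVN samples of their own number and treatment. The exception was NTS Oil 2, whose correlation over those probe sets was -0.23 with ARC Oil 2 and -0.26 with PVN Oil 2, but 0.84 with ARC Oil 1 and 0.85 with PVN Oil 1. The 36 probe sets included 4 called in the NTS, among them Asb15, Harbi1 and Ccdc77. Over the other 32 the 5 samples again matched best with their own number, and NTS Oil 2 had 0.22 and 0.17 with ARC and PVN Oil 2, against 0.45 and 0.41 with ARC and PVN Oil 1. Several results are therefore given with and without Oil 2, EB 3 or Oil 3. In the NTS the code letter of the sample titles also divided with treatment, and since its meaning is not stated, any batch it marks cannot be told apart from EB.

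EB separated the NTS samples at few genes. By the threshold of the study, an unadjusted p of 0.05 or less with a fold change of 2 or more, 11 probe sets were called higher (0.0474% of those tested) and 7 lower (0.0302%) in EB-treated samples. Asb15 was the 1 probe set (0.00431%) with an adjusted p under 0.05 (limma, Benjamini-Hochberg over all gene probe sets), and the adjusted p was 0.934 for each of the other 17. At an unadjusted p of 0.05 or less stood 529 probe sets higher (2.28%) and 550 lower (2.37%). The values of the treatments did not overlap in 1283 probe sets higher (5.53%) and 1311 lower (5.65%) with EB. The median EB minus Oil difference over all probe sets was -0.01. With these samples the fold change at which p reaches 0.05 was 1.31 for the median probe set and 1.85 at the 95th percentile, so a change under its own probe set's limit was not detectable. The count of called probe sets depended on single samples, with 26 higher and 69 lower without EB 3, 11 and 23 without Oil 3, and 17 and 16 without Oil 2.

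**Figure D1:**
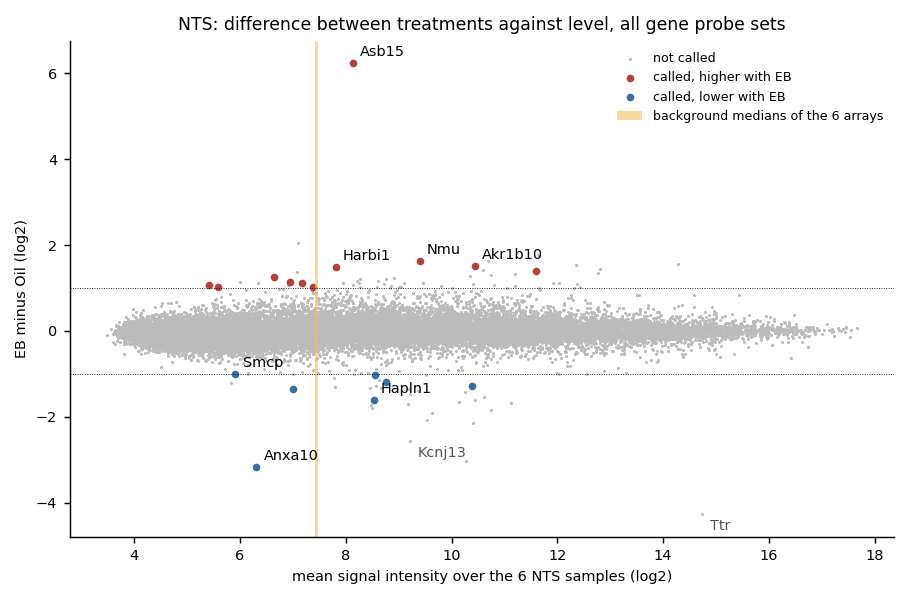
EB minus Oil difference (log2) of each of the 23188 gene probe sets against its mean signal intensity over the 6 NTS samples (log2), with called probe sets in red (higher with EB) and blue (lower with EB), the 2-fold lines dotted and the range of the background medians shaded. Asb15 stood apart at 6.23, while Ttr and Kcnj13, genes of the choroid plexus, had large differences that were not called.

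Asb15 was higher in the EB-treated than in the Oil-treated NTS samples. It encodes a member of the family of ankyrin repeat and SOCS box proteins, which bring proteins to a cullin ubiquitin ligase for degradation. Its signal was 11.20, 11.02 and 11.51 in EB 1 to EB 3, against 5.03, 4.91 and 5.10 in Oil 1 to Oil 3. All EB-treated samples lay far above background and all Oil-treated samples below it, with no value in between. The difference was 6.23 (SE 0.16, 95% interval 5.86 to 6.60, adjusted p = 4.13e-05), and set against the background medians the signal was at least 13.9-fold higher in EB-treated samples. Leaving out any 1 sample kept the difference between 6.10 and 6.34. An exact permutation test of 3 samples against 3 cannot go below 0.1, the value Asb15 reached.

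The same probe set took the same pair of levels in the hypothalamus, but not always by treatment. Asb15 read 11.53 to 11.57 in the ARC and 11.37 to 11.84 in the PVN of EB-treated samples. In Oil-treated samples it read 5.15, 11.60 and 5.19 in the ARC and 5.27, 11.76 and 4.78 in the PVN. Oil 2 was thus high in both hypothalamic regions and low in the NTS. In 1 fit of all 18 arrays the EB effect in the NTS exceeded that in the ARC by 2.00 (SE 2.24, adjusted p = 0.893) and that in the PVN by 1.88 (SE 2.24, adjusted p = 0.999). With the spread shared over the 18 arrays in this way, the NTS difference itself had an SE of 1.58 and an adjusted p of 0.824.

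Harbi1 followed the same samples on a smaller scale. This gene encodes a nuclease derived from a harbinger transposase. It read 8.67, 8.78 and 8.20 in EB-treated samples, against 7.36, 6.81 and 7.01 in Oil-treated samples, all of which lay below background. The treatments did not overlap, the difference was 1.49 (SE 0.21, adjusted p = 0.934) and the signal was at least 2.15-fold higher with EB. In ARC and PVN Oil 2, the samples with high Asb15, Harbi1 read 9.49 and 8.98, against 6.97 to 7.55 in the other 4 Oil-treated hypothalamic samples. Harbi1 kept its call in all 6 fits that leave 1 NTS sample out.

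**Figure D2:**
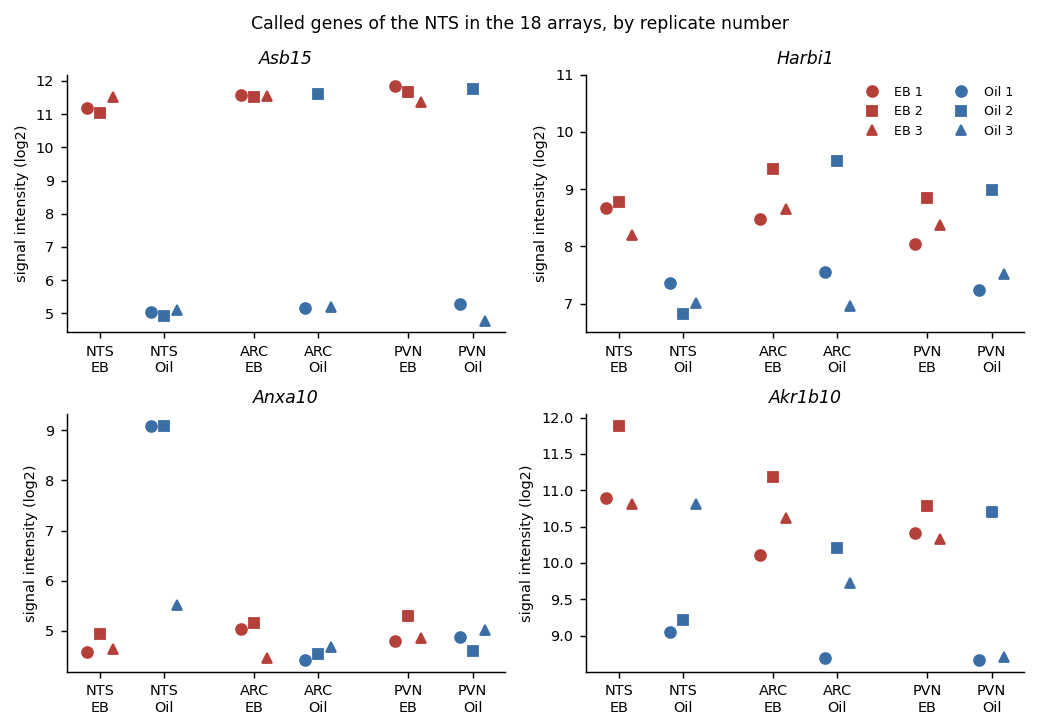
Signal intensity (log2) of Asb15, Harbi1, Anxa10 and Akr1b10 in the 18 arrays, EB in red and Oil in blue, by region and replicate number (circle 1, square 2, triangle 3). Oil 2 (blue square) was high for Asb15 and Harbi1 in the ARC and PVN and low in the NTS, and Anxa10 exceeded 9 only in NTS Oil 1 and NTS Oil 2.

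The sequence before the start of both genes is shown because both genes were high and low in the same arrays. The RefSeq promoter windows of GRCr8 run from 250 bases before to 50 bases after each start, and the 250 bases before the start are printed for chr4:53986967-53987216 (Asb15, plus strand) and chr3:98136893-98137142 (Harbi1, plus strand), with GGTCA and its complement TGACC, each 1 arm of the palindromic estrogen response element, in capitals.
Asb15: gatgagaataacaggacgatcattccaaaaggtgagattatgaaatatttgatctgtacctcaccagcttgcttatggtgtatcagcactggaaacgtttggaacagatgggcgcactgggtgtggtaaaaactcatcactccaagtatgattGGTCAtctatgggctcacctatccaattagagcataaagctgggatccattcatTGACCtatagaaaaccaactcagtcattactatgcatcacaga
Harbi1: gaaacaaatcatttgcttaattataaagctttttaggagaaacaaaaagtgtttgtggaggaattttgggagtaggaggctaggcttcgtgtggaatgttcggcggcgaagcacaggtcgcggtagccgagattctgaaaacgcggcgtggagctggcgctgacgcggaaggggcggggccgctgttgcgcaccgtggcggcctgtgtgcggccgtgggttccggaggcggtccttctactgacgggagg
The Asb15 stretch held 2 such arms and the Harbi1 stretch 0. Of the 16 named genes called in the NTS, 15 had a promoter window, and 7 of these held an arm (Akr1b10, Anxa10, Asb15, Dnase1l3, Hapln1, Nmu and Tnnc2). Over all 33469 RefSeq promoter windows, counted singly, an arm was present in 40.5%, searched on both strands. A called gene counted if any of its windows held an arm, so its share and that of all windows are not in the same unit. The full palindromic estrogen response element, both arms with any 3 bases between them, was in 9 windows (0.0269%), and in 0 of the 15.

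Called genes higher with EB included a pair of neuropeptide precursors. Pdyn, which encodes the precursor of the dynorphin opioid peptides, read 8.24, 7.24 and 8.18 in EB-treated samples and 6.96, 7.20 and 6.45 in Oil-treated samples. EB 2 lay only just above Oil 2, and all Oil-treated samples were below background, so the difference of 1.02 (SE 0.32) came to at least 1.35-fold against background. Nmu, the precursor of neuromedin U, read 10.98, 9.11 and 10.56 in EB-treated samples and 9.11, 8.90 and 7.75 in Oil-treated samples. EB 2 and Oil 1 were level, so the treatments overlapped at a difference of 1.62 (SE 0.55). Without Oil 3 the difference of Nmu was 1.21 and neither it nor Pdyn kept its call, and the same held without EB 1 and without EB 3.

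Ngef and Dapl1 were called at lower signals. Ngef, which encodes ephexin, an exchange factor downstream of ephrin receptors, read 8.12, 7.18 and 7.89 in EB-treated samples and 7.01, 7.04 and 5.78 in Oil-treated samples, a difference of 1.12 (SE 0.39), at least 1.21-fold against background. Dapl1, named for its likeness to a death-associated protein, read 6.91, 8.24 and 7.43 in EB-treated samples and 6.28, 6.46 and 6.41 in Oil-treated samples. Its difference was 1.14 (SE 0.31), at least 1.05-fold against background. In both genes all Oil-treated samples lay below background, as did EB 2 for Ngef and EB 1 and EB 3 for Dapl1, and the treatments did not overlap. Ngef lost its call without Oil 3, EB 1 or EB 3, and Dapl1 without EB 2. Ccdc77, a coiled-coil protein gene, averaged 7.27 ± 0.81 in EB-treated samples and 6.01 ± 0.40 in Oil-treated samples (SD, n = 3 each) with overlapping values, and was not called without EB 1, EB 2 or Oil 2. All Oil-treated samples and EB 3 lay below background, and so did the EB mean, so against background no rise of Ccdc77 could be measured. In ARC and PVN Oil 2, the samples with high Asb15, Ccdc77 read 9.08 and 8.85. The other Oil-treated hypothalamic samples read 6.24 to 6.83.

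Akr1b10 and LOC100910708 varied together over the samples. Akr1b10, an aldo-keto reductase that reduces aldehydes and retinal, read 10.90, 11.89 and 10.81 in EB-treated samples and 9.05, 9.21 and 10.81 in Oil-treated samples. LOC100910708, which has no role assigned here, read 11.98, 13.07 and 11.84 in EB-treated samples and 10.43, 10.34 and 11.96 in Oil-treated samples. Both were highest in EB 2 and lowest in Oil 1 or Oil 2, and in both Oil 3 sat among the EB-treated samples. The differences were 1.51 (SE 0.51) and 1.39 (SE 0.51), and neither was called without EB 2, Oil 1 or Oil 2. By their probe set identifiers, 6 of the 18 called probe sets lie on chromosome 4, which holds 5.97% of all gene probe sets: Asb15, Akr1b10, LOC100910708, Ccdc77 and both probe sets of Ninj2. In the RefSeq annotation 69 protein-coding genes lie between Asb15 and Akr1b10, and 1 lies between Ninj2 and Ccdc77.

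Among genes called lower with EB, Anxa10 had the largest difference. It encodes annexin A10, of a family that binds membranes in the presence of calcium. Anxa10 read 4.59, 4.94 and 4.65 in EB-treated samples, against 9.10, 9.08 and 5.51 in Oil-treated samples. Oil 1 and Oil 2 were high, while Oil 3 was below background like all EB-treated samples, so the difference was -3.17 (SE 0.91). With all EB-treated samples at background and the Oil mean as measured, Oil 3 included, this was at least 1.36-fold lower. In the ARC and PVN it read between 4.42 and 5.29 in every sample. Without Oil 3 the difference was -4.37 (SE 0.15, adjusted p = 0.00128), and it then differed from the effect in the ARC by -4.69 and in the PVN by -4.51 (adjusted p = 1.41e-06 and 2.45e-06). The Oil group of these fits was Oil 1 and Oil 2, the closest pair of arrays in the series. With Oil 1 and Oil 2 averaged as 1 sample and Oil 3 kept, the difference was -2.58 (SE 0.98, adjusted p = 0.926, limma). Without Oil 1 or Oil 2 the call held, and the smallest difference in any fit with 1 sample left out was -2.58. Its 10 measured relatives in the annexin family included 0 called genes.

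Ninj2 was called lower at both of its probe sets. Ninj2 encodes ninjurin 2, an adhesion protein of nerve and glia. One probe set read 8.20, 8.39 and 7.92 in EB-treated samples and 8.94, 9.22 and 9.90 in Oil-treated samples. The other read 9.79, 9.99 and 9.47 in EB-treated samples and 10.75, 10.59 and 11.72 in Oil-treated samples. The treatments overlapped in neither, EB 3 was lowest and Oil 3 highest in both, and the differences were -1.19 (SE 0.26) and -1.27 (SE 0.31). Without Oil 3 they were -0.91 and -0.92 and no longer called.

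Hapln1 and Tnnc2 shared the high value of Oil 3. Hapln1 encodes the link protein that fastens proteoglycans to hyaluronan in perineuronal nets. It read 7.55, 8.68 and 6.93 in EB-treated samples and 8.95, 8.48 and 10.58 in Oil-treated samples, with overlap and a difference of -1.62 (SE 0.63) that was not called without EB 1, EB 3, Oil 1 or Oil 3. Tnnc2, the troponin C of fast muscle, read 8.33, 8.10 and 7.72 in EB-treated samples and 8.83, 8.61 and 9.79 in Oil-treated samples, a difference of -1.03 (SE 0.32) that was not called without Oil 3 or EB 3. Oil 3 also had the highest mean of the myelin list and EB 3 the lowest, and the part of this in these calls was not tested.

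Another 3 called genes lay below background in all 6 samples and have no fold change that the arrays could measure. These were Smcp, a gene of sperm mitochondria (difference -1.01, SE 0.14), Dnase1l3, a secreted nuclease of chromatin (1.07), and Sult5a1, a cytosolic sulfotransferase (1.02). The last called probe set, with a difference of -1.35, carries several symbols and is not named.

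**Figure D3:**
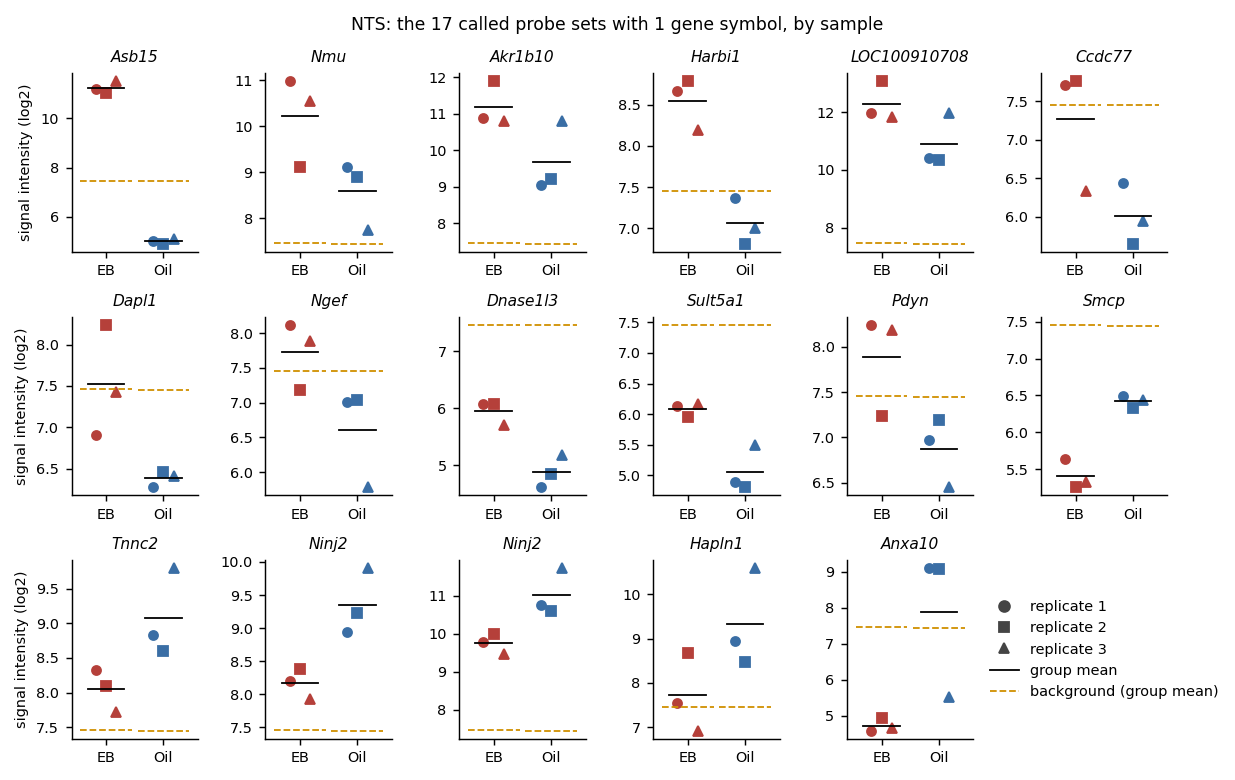
Signal intensity (log2) of the 17 called probe sets with 1 gene symbol in EB-treated (red, left) and Oil-treated (blue, right) NTS samples, ordered by difference, with each group's mean (black line) and the mean of its background medians (dashed). The axes differ between panels. Of the 18 called probe sets 12 had no overlap between treatments, and of all probe sets 11.2%. The calls were chosen from these same values, which favours separation, so this contrast is no support for them.

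Several genes had small p-values without reaching 2-fold, and in each of those that follow the treatments did not overlap and the adjusted p was 0.934. Il18, a cytokine of the interleukin 1 family, read 7.79, 7.49 and 7.86 in EB-treated samples and 8.65, 8.68 and 8.53 in Oil-treated samples, a difference of -0.91 (SE 0.14). Cth, the cystathionine lyase that makes cysteine and hydrogen sulfide, lay below background in all EB-treated samples at 6.79, 6.68 and 6.61 and just above it in Oil-treated samples at 7.76, 7.65 and 7.52 (difference -0.95, SE 0.12). Pigv, a mannosyltransferase of GPI anchor synthesis, read 7.96, 8.07 and 8.10 in EB-treated samples and 7.39, 7.05 and 7.04 in Oil-treated samples, all of the last group below background (difference 0.89, SE 0.14). The samples within a treatment lay within 0.4 of each other in Il18, Cth and Pigv alike. At higher signals Cyth3, an exchange factor for ARF GTPases, differed by 0.83 (SE 0.16), Lrrn2, a leucine-rich repeat protein of neurons, by 0.76 (SE 0.17) and Chst10, the sulfotransferase of the HNK-1 carbohydrate, by 0.72 (SE 0.15). Lower with EB were Prim1, the small subunit of DNA primase, by -0.61 (SE 0.12), and Ago3, an Argonaute protein that carries microRNAs, by -0.57 (SE 0.11).

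Lists of genes with a shared role were read by how many members passed and by their median, beside the same over all genes. Over all probe sets 2.28% were higher and 2.37% lower at an unadjusted p of 0.05 or less. Of 60 lists, 9 held a called member, 47 held a member at an unadjusted p up to 0.05, and 39 had a median difference within 0.1 of 0. The lists with medians of 0.2 or more in size were 8, and 7 of these were lists of cell types or tissue around the NTS.

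Estrogen signalling showed few differences. Esr1 and Esr2, the nuclear receptors of estradiol, and Gper1, a membrane receptor, were below background in all 6 samples, and Pgr, the progesterone receptor and a known estrogen target, read 8.89, 8.54 and 8.71 in EB-treated samples and 8.62, 7.86 and 8.79 in Oil-treated samples. These Pgr values overlapped, with a difference of 0.29 (SE 0.25). Of 14 measured receptors and coregulators 0 were called, and 2 were higher at an unadjusted p of 0.05 or less. That was 14.3% of the list, against 2.28% of all probe sets, and 1 was higher without EB 3 or without Oil 3. Fkbp5, a cochaperone of steroid receptors, read 8.20, 7.87 and 7.46 in EB-treated samples and 7.22, 7.11 and 6.88 in Oil-treated samples, all 3 of the last group below background (difference 0.77, SE 0.21), and Esrra, an orphan receptor, differed by 0.31 (SE 0.13). Of 23 genes that estrogens regulate in uterus, pituitary or breast cells, 0 were called and 0 stood at an unadjusted p of 0.05 or less, with a median of -0.06. Without EB 3, and also without Oil 2, 1 of the 23 was called higher. S100g, the vitamin D- and estrogen-dependent calcium binder of gut and uterus, had the smallest p of these, with 8.33, 7.47 and 6.52 in EB-treated samples and 5.94, 6.91 and 6.26 in Oil-treated samples, which overlapped. In the list of steroid synthesis and inactivation 1 of 25 genes was higher (Sult1a1, 0.39) and 2 were lower (Hsd17b2, -0.37, and Cyp7b1, -0.33) at an unadjusted p of 0.05 or less. These shares were 4% and 8%, against 2.28% and 2.37% of all probe sets.

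Of 42 measured neuropeptide precursors 2 were called higher (against 0.0474% of all probe sets), Pdyn and Nmu above, and 0 lower, and the median was 0.14. Without Oil 3, 0 were called, and without Oil 2, 4 were called higher. Avp and Oxt, lower at an unadjusted p of 0.05 or less, were below background in all 6 samples. Of 49 neuropeptide receptors 0 were called, and 36 had a difference above 0, against 11173 of all 23188 probe sets. The median was 0.27, with 0.16 to 0.28 when 1 sample was left out. Avpr1a, the vasopressin receptor V1a, was the 1 receptor of this list at an unadjusted p of 0.05 or less in all 6 samples, with 8.79, 8.83 and 8.48 in EB-treated samples and 7.89, 8.37 and 8.40 in Oil-treated samples (difference 0.48, SE 0.18). Without EB 3, 6 of the 49 receptors were higher at that p and 2 were called, and without Oil 3, 2 were higher and 1 lower. For 25 of the 49 receptors Oil 3 held the lowest value of the 6 samples. Among 27 receptors of gut and metabolic hormones, Ghr, the growth hormone receptor, read 8.56, 8.48 and 8.87 in EB-treated samples and 8.14, 8.29 and 7.92 in Oil-treated samples (difference 0.52, SE 0.16). In the machinery that processes and stores peptides, 2 of 21 genes were higher at an unadjusted p of 0.05 or less (9.52%, against 2.28% of all probe sets). These were Ptprn, a membrane protein of secretory granules (0.46, SE 0.16), and Vgf, a granule peptide precursor (0.59, SE 0.23), though Vgf overlapped between treatments.

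Transmitter receptors and channels differed little. Of 23 glutamate receptor genes 0 stood at an unadjusted p up to 0.05 (2 higher without EB 3), and of 22 GABA and glycine receptor genes 1 did (Gabrr1, below background throughout). Htr3a, the serotonin receptor channel carried by vagal afferents, read 8.40, 8.24 and 8.37 in EB-treated samples and 8.05, 7.78 and 7.56 in Oil-treated samples, without overlap (difference 0.54, SE 0.15). Nos1, neuronal nitric oxide synthase, read 7.94, 7.83 and 8.71 in EB-treated samples and 7.39, 7.43 and 7.54 in Oil-treated samples (0.71, SE 0.24). The treatments did not overlap in Nos1 either, though 2 of the Oil-treated samples were below background. Of 88 potassium channel probe sets 1 was higher (1.14%) and 3 were lower (3.41%) at an unadjusted p up to 0.05, against 2.28% and 2.37% of all probe sets. Among the lower was Kcnab3, an accessory subunit, with 10.15, 10.19 and 9.94 in EB-treated samples and 10.66, 10.41 and 11.42 in Oil-treated samples (difference -0.74, SE 0.26). The 15 catecholamine genes included 0 at that threshold, and Th, tyrosine hydroxylase, read 12.12, 11.38 and 11.02 in EB-treated samples and 11.22, 10.94 and 7.50 in Oil-treated samples, low in Oil 3 alone. Of 30 genes for synaptic vesicles and release, Syp, the vesicle protein synaptophysin, was the 1 that reached it (0.34, SE 0.12). That was 3.33% of the list higher, against 2.28% of all probe sets. The immediate early genes, which mark recent activity of neurons, gave 1 lower of 24 (Fosl1, below background throughout).

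Immune and glial genes gave small differences in both directions. Microglia and macrophage genes were higher in 4 of 21 at an unadjusted p up to 0.05 (19.0%, against 2.28% of all probe sets) and lower in 0. P2ry12, a purine receptor of resting microglia, read 10.25, 9.98 and 9.92 in EB-treated samples and 9.43, 9.19 and 9.87 in Oil-treated samples (0.55, SE 0.20). C1qa, a chain of complement C1q made by microglia, read 10.99, 11.45 and 11.32 in EB-treated samples and 10.80, 10.98 and 10.38 in Oil-treated samples (0.53, SE 0.20). The other members were C1qb and the protease Ctss, and in all 4 the treatments did not overlap. The list had 0 called members, a median of 0.13, and 2 members higher at that threshold without EB 3, without Oil 3 or without Oil 2. Without EB 3, 1 member was also lower at that threshold and was called lower. Among 39 interferon-stimulated genes 3 were higher (against 2.28% of all probe sets), Tap2, which carries peptides for antigen presentation (0.52, SE 0.13), Irf9, a factor of interferon signalling (0.60, SE 0.18), and Oasl, below background throughout.

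Of 27 genes of endothelium and mural cells 5 were lower (18.5%, against 2.37% of all probe sets) and 1 was higher at an unadjusted p of 0.05 or less. Of the 27, 0 were called and 20 had a difference below 0, against 12015 of all 23188 probe sets. The median was -0.15. Rgs5, a marker of pericytes, read 12.10, 11.69 and 11.72 in EB-treated samples and 12.47, 12.51 and 12.97 in Oil-treated samples (difference -0.81, SE 0.19). Tek, the angiopoietin receptor, read 10.05, 10.02 and 10.09 in EB-treated samples and 10.40, 10.30 and 10.38 in Oil-treated samples (-0.31, SE 0.11), and Cdh5, the cadherin of endothelial junctions, differed by -0.52 (SE 0.21). Cldn5 and Pecam1, markers of the same cells, overlapped between treatments at -0.19 and -0.03. Without Oil 3 the list had 2 genes lower, and Oil 3 held the highest value in 13 of its 27 members. Alas2, the heme enzyme of red cells, was lower at 7.01, 7.21 and 7.46 in EB-treated samples against 7.72, 7.92 and 7.77 in Oil-treated samples (-0.58, SE 0.15).

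Families of enzymes, transporters and adaptors split in direction. Of 37 ABC transporters 5 were higher and 3 lower at an unadjusted p up to 0.05, where all probe sets had 2.28% higher and 2.37% lower. The ABC counts were 2 and 5 without Oil 2 and 3 and 1 without Oil 3. Abcg1, a cholesterol exporter, read 10.89, 11.18 and 11.03 in EB-treated samples and 10.65, 10.52 and 10.43 in Oil-treated samples (0.50, SE 0.13). Abca7, a lipid transporter, read 9.66, 9.61 and 9.22 in EB-treated samples and 8.37, 8.56 and 9.16 in Oil-treated samples (0.80, SE 0.23), with EB 3 just above Oil 3. Of 18 aldo-keto reductases 2 were higher and 4 lower, but 3 of the 4 lower ones were below background in all 6 samples, and the other was Akr1c15 at 10.14, 10.71 and 10.16 in EB-treated samples and 11.03, 10.78 and 11.08 in Oil-treated samples (-0.63, SE 0.19). Without Oil 3 the aldo-keto counts were 1 higher and 1 lower, and without Oil 2 they were 0 and 3. Of 65 cytochrome P450 genes 1 was higher (Cyp2j3, 0.46) and 5 lower, 3 of these below background, and without EB 3 the lower ones were 2. Beside Asb15, the 23 other genes of its family and ligase included 2 higher, Asb6 (0.40, SE 0.12) and Asb4 (0.76, SE 0.29), and 1 lower, Asb12, below background throughout. The GPI anchor genes gave Pigv and Pigs (0.44, SE 0.17) higher of 24 and 0 lower. Other families had low counts, such as 6 higher and 7 lower of 207 zinc finger and BTB factors (2 and 3 without Oil 3) and 0 of 73 genes of oxidative phosphorylation and of 74 ribosomal protein genes. Of 18 genes that glucocorticoids induce in brain 3 were higher (16.7%, against 2.28% of all probe sets), Fkbp5, Sult1a1 and Zbtb16, and 2 without Oil 3.

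**Figure D4:**
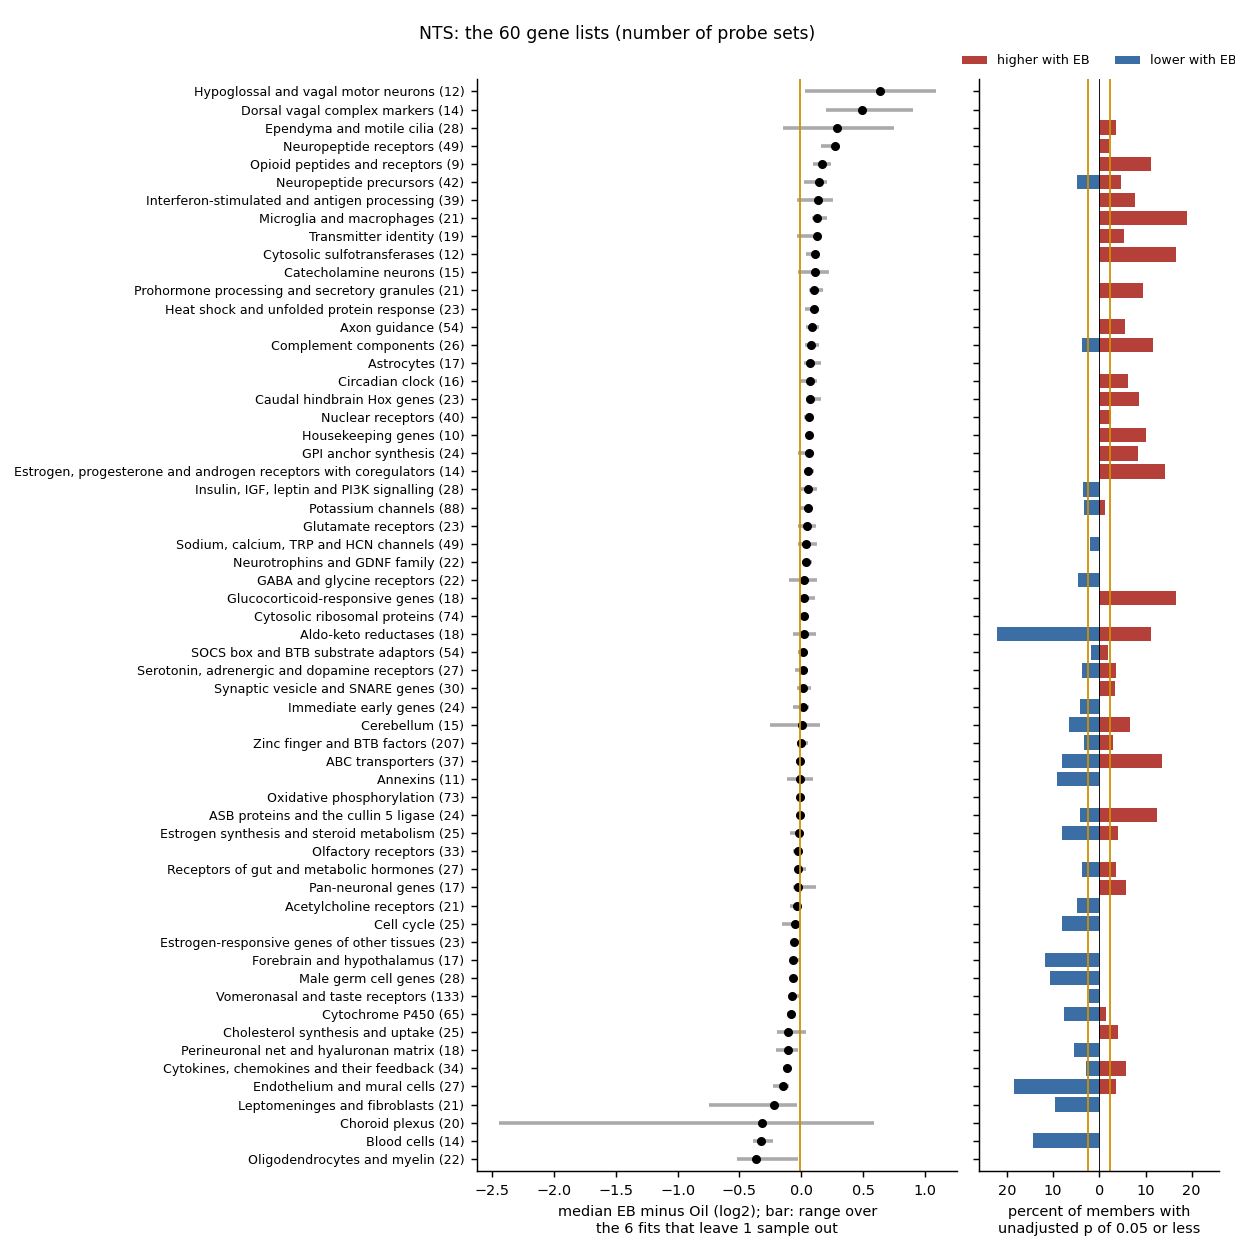
Median EB minus Oil difference (log2, points) of 60 gene lists in the NTS with its range when 1 sample was left out (bars), and on the right the percent of members at an unadjusted p of 0.05 or less, higher (red) and lower (blue) with EB. Orange lines give the values over all 23188 probe sets, -0.01, 2.28% and 2.37%, and the widest bars belong to the choroid plexus, ependyma and motor neuron lists.

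Genes of tissue next to the NTS varied widely between samples, and not by treatment. The mean signal of 20 choroid plexus genes was 6.47, 6.59 and 12.12 in EB-treated samples and 9.98, 10.03 and 7.26 in Oil-treated samples. All 20 were highest in EB 3, and EB 1 and EB 2 lay below the Oil-treated samples. Ttr, transthyretin, the main protein of that tissue, read 8.49, 11.45 and 17.91 in EB-treated samples and 17.65, 17.69 and 15.29 in Oil-treated samples, and its difference of -4.26 (SE 2.20) was not called. Kcnj13, a potassium channel of the plexus epithelium, read 4.88, 4.58 and 14.36 in EB-treated samples and 12.19, 12.03 and 7.29 in Oil-treated samples. The list had 0 called members and a median of -0.31, which turned to 0.11 without Oil 2, and without EB 3 it had 12 called lower with a median of -2.45. Without both EB 3 and Oil 3, 105 probe sets had an adjusted p under 0.05, 93 of them lower with EB, and these held 16 of the 20 choroid plexus genes and Anxa10, while Asb15 and Harbi1 were among the 12 higher. Leptomeninges genes followed the plexus, with means of 7.81, 7.54 and 9.21 in EB-treated samples and 8.82, 8.72 and 8.07 in Oil-treated samples, and Col1a1, a collagen of fibroblasts, differed by -0.79 (SE 0.27). Without EB 3, 5 of the 21 leptomeninges genes were called lower.

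Neurons of the dorsal vagal complex and its motor nuclei were weakest in Oil 3. The 14 dorsal vagal markers averaged 9.32, 8.81 and 8.92 in EB-treated samples and 8.92, 8.77 and 7.42 in Oil-treated samples, with 10 of the 14 lowest in Oil 3. The 12 genes of hypoglossal and vagal motor neurons averaged 10.87, 10.59 and 9.14 in EB-treated samples and 10.16, 10.25 and 8.02 in Oil-treated samples. Chat, which makes acetylcholine, read 12.34, 12.13 and 9.42 in EB-treated samples and 11.32, 11.37 and 6.95 in Oil-treated samples, and Tbx20, a factor of motor neurons, read 8.67, 8.87 and 8.87 in EB-treated samples and 8.61, 8.71 and 5.58 in Oil-treated samples. Both overlapped between treatments, with EB 3 lowest of its group for Chat but not for Tbx20. These lists had the largest medians of the 60, 0.49 and 0.64, and 0 members at an unadjusted p of 0.05 or less. Without Oil 3 the medians were 0.20 and 0.03. Without EB 3 they were 0.37 and 1.09, and 2 of the 14 dorsal vagal genes, both called, and 4 of the 12 motor neuron genes, 1 of them called, were higher at that p. Tac1, the precursor of substance P, stood apart from this pattern at 10.61, 9.91 and 12.46 in EB-treated samples and 9.93, 9.59 and 9.64 in Oil-treated samples, high in EB 3. Motile cilia genes averaged 7.82, 7.08 and 8.46 in EB-treated samples and 8.03, 7.91 and 6.24 in Oil-treated samples, and 21 of 28 were lowest in Oil 3. Myelin genes ran the other way, at 12.66, 12.56 and 11.84 in EB-treated samples and 12.43, 12.34 and 13.19 in Oil-treated samples. The part of these differences in the called genes was not tested.

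**Figure D5:**
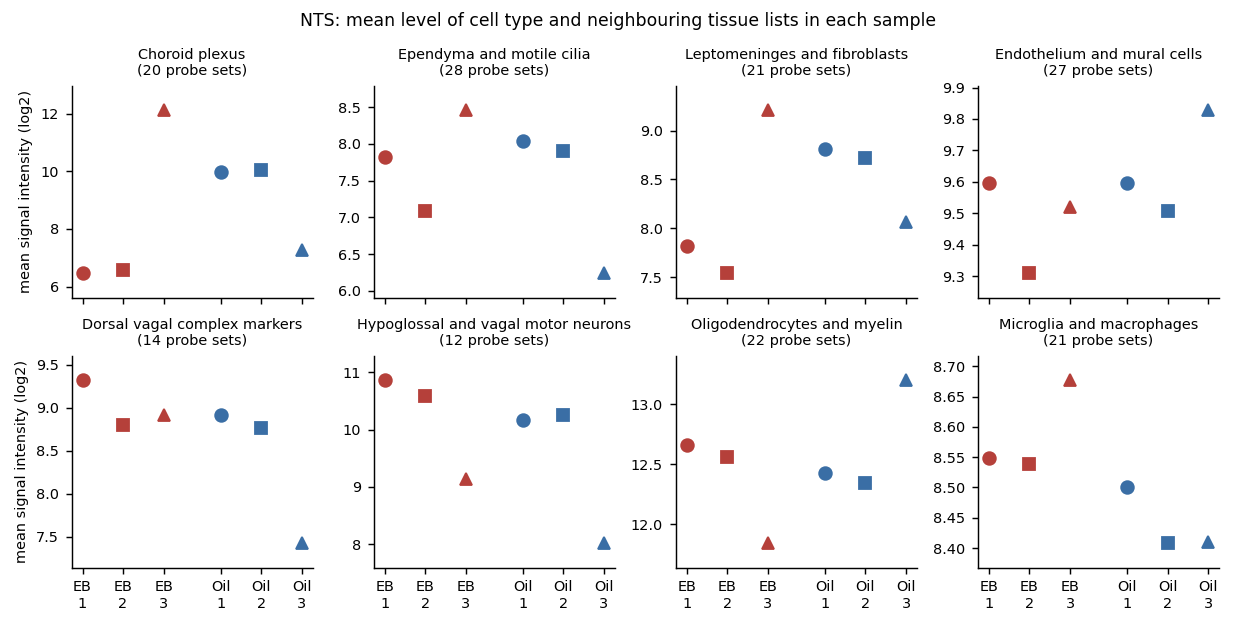
Mean signal intensity (log2) of 8 cell type and tissue lists in each NTS sample, EB-treated in red on the left and Oil-treated in blue on the right, with axes that differ between panels. EB 3 was highest for choroid plexus, at 12.12, and Oil 3 lowest for dorsal vagal and motor neuron genes, at 7.42 and 8.02, and highest for myelin, at 13.19.

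With all 18 arrays taken as independent, no EB effect of the NTS was shown to differ from that in the hypothalamus. In the fit of 18 arrays 0 of 23188 probe sets had an adjusted p under 0.05 for the NTS effect minus the ARC effect, and 0 for the NTS effect minus the PVN effect. Since the regions share rats, the fit was repeated with samples of 1 treatment and number as a random block, and 0 passed for either difference, with or without NTS Oil 2. By the threshold above, 18 probe sets were called in the NTS (0.0776%), 111 in the ARC (0.479%; 23 or 0.0992% higher and 88 or 0.38% lower) and 77 in the PVN (0.332%; 35 or 0.151% higher and 42 or 0.181% lower), and whether these counts differ was not tested. The spread within treatments was alike, with a median pooled SD of 0.207 in the NTS, 0.209 in the ARC and 0.203 in the PVN. For the called genes the estimates differed in size and sign between regions: Nmu had 1.62 in the NTS, -1.88 in the ARC and 0.01 in the PVN, with NTS minus ARC at 3.50 (unadjusted p = 0.0563, adjusted p = 0.798, limma). Smcp, below background in the NTS throughout, had -1.01 in the NTS, 0.38 in the ARC and 0.13 in the PVN, where the unadjusted p of the difference was 0.00127 for the ARC and 0.00532 for the PVN and the adjusted p 0.791 and 0.999. Akr1b10 had 1.51, 1.09 and 1.16 in the NTS, ARC and PVN. Its Oil 2 samples lay among the EB-treated samples in the ARC (10.21) and the PVN (10.70). The other Oil-treated hypothalamic samples read 8.67 to 9.73.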

How the data were processed

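RNA from frozen tissue punches was hybridised by Thermo Fisher Scientific to Rat Clariom S Pico arrays. The deposited values are log2 signal intensities, which were background-adjusted, normalized and log transformed by the array service after Irizarry before the authors deposited them, and which the authors compared in the Transcriptome Analysis Console. The genome build behind the probe sets is not given in the sources used here. Arrays have no read depth. Of 24834 probe sets the 1646 controls were not tested. Symbols came from the platform annotation (15049 probe sets) and from the study's supplementary gene list (56), 10 probe sets carry several and 8073 none.

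Samples were grouped by their labels for tissue and treatment. EB minus Oil was fitted to the 6 NTS arrays in R 4.3.3 with limma 3.58.1 (lmFit and eBayes, 2.94 prior degrees of freedom), without further normalization or filter. Adjusted p is by Benjamini-Hochberg over 23188 probe sets. SE is limma's moderated standard error, exact permutation tests were two-sided, and regions were compared by limma over the 18 arrays without a term for the rat, because the labels do not say which samples come from 1 rat. For a fold change given as at least, a treatment below background in all 3 samples was set to the mean of its background medians, and the other treatment kept its measured mean. The steps were tested on simulated data.

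The members and the 60 lists were chosen with earlier results of these data known. Named are genes past adjustment, called genes with 1 symbol, in each list the 3 genes of smallest p, the 10 probe sets per direction with the smallest p and no overlap, and cell type markers. Genes named to complete a count, such as Cdh5 and Asb4, were chosen after their values were seen. Alternatives were quantile normalization (limma), a background filter, a shared spread, a trended and robust prior, the replicate number as a block and leaving out samples. Leaving out EB 3 with Oil 3, averaging Oil 1 with Oil 2, and a random block (duplicateCorrelation) over the regions were added after seeing the data. Plots used matplotlib 3.10.9 under Python 3.11.15.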

Additional observations from a re-analysis of the deposited data

How the results depend on the processing

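Asb15 and Harbi1 kept their direction and call in all 13 alternatives. Against 11 probe sets called higher, 7 lower and 1 past adjustment, leaving out 1 NTS sample gave 11 to 26 higher, 11 to 69 lower and 1 to 2 past adjustment. Testing only probe sets above background, which tests fewer, gave 5 higher and 4 lower. The spread shared over 18 arrays gave 13 lower and 0 past adjustment. Averaging Oil 1 and Oil 2 gave 18 higher and 17 lower. Leaving out both EB 3 and Oil 3 gave 26 higher, 200 lower and 105 past adjustment. For the NTS effect against the ARC and against the PVN, where 0 probe sets passed adjustment, leaving out 1 NTS sample gave 0 to 1, the 1 being Anxa10 without Oil 3. Without EB 3 the probe sets past adjustment were Asb15 and Pmch, and without Oil 3 Asb15 and Anxa10. The causes were not tested.

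The replicate numbers did not pair EB with Oil, since the deviations of same-numbered samples from their group means correlated at -0.18, -0.32 and -0.46. With the replicate number as a block, 18 probe sets were called higher. A random block of treatment and number over the 3 regions left 0 probe sets past adjustment for both region differences, with a consensus correlation of 0.05.

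The number of arrays limits the precision, and 42.5% of gene probe sets lay below background in all 6 samples.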

Other observations

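Pmch, the precursor of melanin-concentrating hormone, was named after its values were seen. It read 9.81, 9.52 and 5.03 in EB-treated NTS samples and 6.06, 6.01 and 6.14 in Oil-treated NTS samples. EB 1 and EB 2 were above background and the other 4 samples below it. Over all 6 samples the treatments overlapped, and the difference of 2.05 was not called. Without EB 3, which held the lowest value of the 6, the difference was 3.59 (SE 0.15, adjusted p = 0.0024, limma).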
